A study of Mus musculus with 9 samples.

Results

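Whole liver of 20-month-old mice that carried a control virus was compared with whole liver of 8-week-old mice, across all genes. The comparison used 6 of the 9 RNA sequencing libraries of the series, 3 per group, chosen by their labels and column names. All were from male wild-type C57BL/6 mice on normal chow in a 12-h light and dark cycle. The young mice were 8 weeks old, and the labels describe no injection of them. The old control mice were injected at 14 months with an adeno-associated virus 9 (AAV9, a gene delivery vector) encoding a negative control short hairpin RNA. The virus was given by tail vein and directly into the subcutaneous white fat, and the mice were kept to 20 months. The study had 15 mice per group. Age and virus injection went together, so their parts in any difference cannot be told apart. Liver is the labelled tissue, although the text on RNA extraction names NRVMs, and no time of day of dissection is given.

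Hepatocytes make up most of the liver's mass and supply plasma proteins, urea, bile acids and glucose. Sinusoidal endothelial cells, Kupffer cells (the resident macrophages) and stellate cells (which store vitamin A and make matrix) lie along the blood channels between them. Ageing rodent liver is known for immune cell infiltration, higher inflammatory transcripts and changes in metabolic and daily rhythms. Many liver genes follow the circadian clock, a loop in which the activators Clock and Bmal1 (gene Arntl) switch on their own repressors Per and Cry.

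Total counts ran from 14243344 to 16414852 in the young and from 15009727 to 15951036 in the old control libraries. Old libraries are named by their numbers 1, 2 and 5. Young libraries are named 1, unnumbered and 5, because 1 count column carries a young letter with a number that matches no young label. The liver markers were present in all 6 libraries: albumin (Alb) took 6.68% to 10.4% of counts. The unnumbered young library also held skeletal muscle transcripts: 11 muscle markers summed to 4283 CPM there (CPM is the count divided by the library's effective size, on its customary scale, so it compares libraries but not genes of unlike length), and to between 0.883 and 2.51 CPM in the other 5. Acta1, skeletal muscle actin, stood at 1105 CPM in it and at no more than 0.444 CPM in those 5. Its FPKM column holds other values, and the reads recovered from that column summed to 9.91 CPM over the same markers. The counts of called genes are therefore also given without this library and with the recovered reads in its place. A list's median is given in 1 or both of these ways where it moves by over 1.5 times. Old control 1 had the smallest share of counts from mitochondrial DNA, 4.42%, against 6.89% to 14.5% in the other 5.

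Across all genes, old and young liver differed in many small amounts and in few that passed the test. Of 14025 genes tested, 7165 had a positive and 6860 a negative log2 fold change (old control minus young), with a median of 0.01, quartiles of -0.26 and 0.33, and an SD of 0.65. The log2 fold change was above 1 for 849 genes and below -1 for 389. Only 5 genes, 0.0357% of those tested, rose at an adjusted p under 0.05 (edgeR's quasi-likelihood test with Benjamini-Hochberg adjustment), and no gene fell. At an unadjusted p under 0.05 stood 901 genes higher in old control, 6.42% of those tested, and 571 lower, 4.07%. Without library scaling beyond the total count, the median of all genes moved to 0.16 and the split to 1298 higher and 199 lower, so directions here are relative to the median gene. In 1247 genes (8.89%) all 3 old control libraries lay above all 3 young ones, and in 1159 (8.26%) all lay below.

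**Figure D1:**
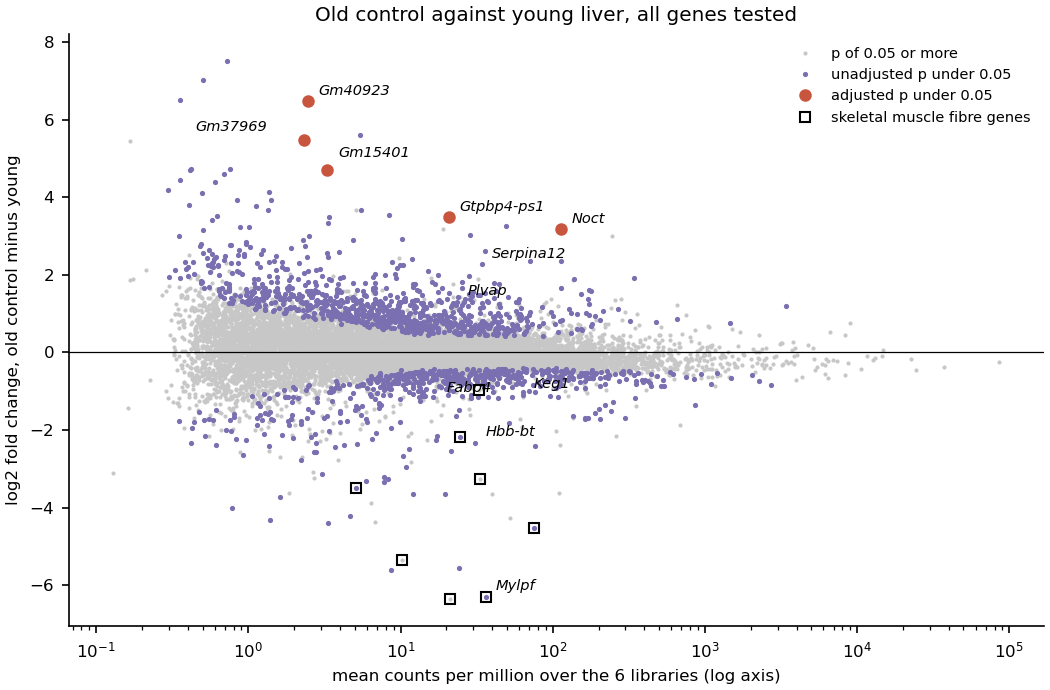
Log2 fold change (old control minus young) of each of the 14025 genes tested against its mean CPM over the 6 libraries, on a log axis; colours give the edgeR p and squares mark genes of skeletal muscle fibres. The 5 genes that passed the adjusted threshold all lie above 0, while the muscle genes lie below 0, with their reads in 1 young library.

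The direction of the differences went with the level of the gene. When the tested genes were cut into 5 equal groups of 2805 by mean level, the median log2 fold change was 0.21 in the lowest group (up to 1.99 CPM) and -0.10 in the highest (from 40.7 CPM). The lowest group held 192 genes higher and 52 lower at an unadjusted p below 0.05. The highest held 109 higher and 184 lower. Without the unnumbered library the medians were 0.27 and -0.12. The filter on low counts used all 9 libraries, in which old ones outnumber young ones, so rare genes could pass it more easily through old liver. With the 6 libraries only, 6538 of 13387 tested genes had a positive fold change. The filter's part in the lowest group was not tested. Among the 500 most abundant genes, 375 were lower and 125 higher, and their share of all counts was 66.4% to 72.0% in young and 61.8% to 69.6% in old control, which overlap. Of the 20 most abundant protein-coding genes, 16 had a negative fold change and none an unadjusted p under 0.05; albumin took 10.4%, 7.35% and 7.12% of counts in the young and 6.68%, 8.32% and 8.28% in the old libraries.

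The gene of known function that rose was Noct, which encodes nocturnin, an NADPH phosphatase whose RNA in liver is strongly rhythmic over the day. Noct (ENSMUSG00000023087, chromosome 3, 51224447 to 51251644, GRCm38) stood at 20.3, 31.2 and 16.1 CPM in young 1, unnumbered and 5. In old control 1, 2 and 5 it stood at 228, 246 and 143 CPM. The lowest old library was thus far above the highest young one, and the log2 fold change was 3.19 ± 0.40 (SE; adjusted p = 0.0121, edgeR). It was 3.46 ± 0.45 without the unnumbered library and 3.56 ± 0.37 with the recovered reads, and passed in both. Leaving out a numbered library kept the log2 fold change between 3.00 and 3.39, but the call was lost without young 1, young 5, old control 1 or old control 2 (adjusted p = 0.141, 0.0838, 0.0979 and 0.0854, edgeR). The annotated neighbour Elf2, a transcription factor gene, had 17.9 ± 1.98 CPM in young and 21.3 ± 1.32 CPM in old control (SD, n = 3).

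Noct is shown with its promoter because no other gene of known function passed with the deposited counts. The stretch is chr3:51224197-51224496 (plus strand), 250 bases before to 50 after the RefSeq start, from RefSeq on GRCm38.p6. Capitals mark TGACG, the core of the cAMP response element. This short word, searched on both strands, is in 22.7% of 25038 mouse promoters of the same length, so its presence is a description only.
Noct: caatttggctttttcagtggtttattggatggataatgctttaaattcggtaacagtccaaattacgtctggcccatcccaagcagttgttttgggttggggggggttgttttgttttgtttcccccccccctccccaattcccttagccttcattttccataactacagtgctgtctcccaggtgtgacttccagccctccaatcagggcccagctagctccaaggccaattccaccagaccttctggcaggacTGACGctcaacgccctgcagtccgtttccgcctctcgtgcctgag

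The other 4 genes that rose do not encode known proteins. Gm15401, an antisense transcript (chromosome 6, 72629288 to 72637717, plus strand), had 0.148, 0.255 and 0.305 CPM in the young and 5.29, 6.11 and 7.76 CPM in the old libraries (log2 fold change 4.71 ± 0.44; adjusted p = 0.00157, edgeR). Gm37969 (chromosome 6, 72635147 to 72638555, minus strand) had 0.0739, 0.192 and 0 CPM in young and 4.94, 3.97 and 4.67 CPM in old control. These 2 overlap each other and both lie within Tcf7l1, which encodes a transcription factor of Wnt signalling. The strand setting of the counting is not given in the sources used here, so their reads cannot be assigned to 1 of the 3 genes with certainty. Tcf7l1 itself had 4.87 ± 1.65 CPM in young and 8.47 ± 2.26 CPM in old control (SD, n = 3; adjusted p = 0.527, edgeR).

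Gtpbp4-ps1 is an unprocessed pseudogene of 249 bases (chromosome 7, 14724656 to 14724904). Gtpbp4-ps1 stood at 4.29, 2.49 and 3.44 CPM in young and at 41.8, 41.6 and 31.6 CPM in old control. Its parent Gtpbp4, a GTPase of ribosome assembly, had 26.4 ± 6.73 CPM in young and 23.1 ± 4.93 CPM in old control (SD, n = 3), and reads shared between near-identical copies may be split. Gm40923, a long intergenic RNA (chromosome 13, 39771790 to 39791384), had 2 counts in all 3 young libraries and 217 in the old ones, a ratio of 98.4 with a 95% interval of 26.9 to 818 that covers counting error only. In each of these 4 genes the old and young libraries lay apart.

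Not all of the 5 passed when the unnumbered library was handled otherwise. Without it 3 genes passed, 0.0208% of 14413: Noct, Gm15401 and Gm37969. With the recovered reads 10 genes passed, 0.0718% of 13922. Those were the same 3, plus Adamts1, Ctcflos, Dmrta1, Esm1, Gm16505 and Igfbp7, which rose, and Dclk3, which fell. Gtpbp4-ps1 had 8.84 CPM and Gm40923 0.486 CPM in the recovered reads, above the other young libraries. Their adjusted p was 0.0559 and 0.0538 (edgeR), and 0.0578 for both without that library. Leaving out young 1 left Gm15401 as the only gene of the 5 that passed. Gtpbp4-ps1 was also lost without young 5, old control 1 or old control 2 (adjusted p = 0.0838, 0.0675 and 0.0603, edgeR), and Gm40923 without young 5 (0.0592). Gm37969 was lost only without young 1 (0.0709).

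The next protein-coding genes on the higher side, ranked by p, had various roles, and no theme among them was tested. None of those described next passed the adjusted threshold with the deposited counts. Dmrta1, a transcription factor gene of the DMRT family, had 0.813, 0.255 and 0.611 CPM in young and 3.20, 5.30 and 4.86 CPM in old control, with a log2 fold change of 2.99 ± 0.47 (adjusted p = 0.05995, edgeR). With the recovered reads it passed, at 2.50 ± 0.39. Hes1, a repressor switched on by Notch signalling, had 6.36, 7.02 and 8.17 CPM in young and 15.9, 19.4 and 19.6 CPM in old control. Hes6, which encodes a protein that opposes Hes1, stood on the other side, at 41.0, 39.3 and 39.0 CPM in young and 24.8, 16.9 and 14.4 CPM in old control.

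Igfbp7, a secreted binding protein of insulin-like growth factors, had 34.1, 41.4 and 24.7 CPM in young and 79.3, 62.0 and 104 CPM in old control (log2 fold change 1.29 ± 0.24; adjusted p = 0.165, edgeR; 1.38 ± 0.23 and past the threshold with the recovered reads). Sod3, the extracellular superoxide dismutase, had 16.3, 17.8 and 11.2 CPM against 42.8, 27.5 and 36.0 CPM. Plvap, which forms the diaphragms of endothelial pores, had 18.8, 12.5 and 9.47 CPM against 41.1, 28.5 and 31.3 CPM. Cyp26b1, an intracellular enzyme that breaks down retinoic acid, had 2.81, 3.00 and 3.28 CPM against 9.30, 6.55 and 9.34 CPM. In all of these the lowest old library lay above the highest young one. Adamts1, a secreted protease of the matrix, had 2.96 and 2.90 CPM in the numbered young libraries and 11.9, 11.9 and 11.7 CPM in old control, but 9.32 CPM in the unnumbered library and 3.11 CPM in its recovered reads.

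Other leading higher genes act inside the cell. Hnrnph1, a splicing regulator, had 72.2, 60.3 and 58.8 CPM in young and 147, 117 and 130 CPM in old control. Ccnl1, a cyclin tied to splicing, had 42.8, 36.3 and 43.1 CPM against 82.1, 76.5 and 86.1 CPM. Nfkbiz, an inhibitor-like regulator of NF-kappaB, had 8.06, 10.3 and 14.0 CPM against 45.9, 26.5 and 21.1 CPM. Rfxank, a subunit of the complex that drives MHC class II genes, was at 7.69, 8.17 and 6.95 CPM against 18.1, 17.1 and 15.2 CPM, but at 14.0 CPM in the recovered reads. The remaining leading higher genes, Ms4a4d, Phf11b, Marcksl1 and S100a11, had log2 fold changes of 1.91, 2.89, 1.49 and 1.55, with old control means of 4.05 to 12.7 CPM.

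On the lower side no gene passed with the deposited counts. Keg1, a gene of the glycine N-acyltransferase family, had the smallest p, with 72.5, 83.3 and 104 CPM in young and 38.2, 40.6 and 43.2 CPM in old control (log2 fold change -1.09 ± 0.19; adjusted p = 0.139, edgeR). Aqp11, an aquaporin of internal membranes, had 58.4, 46.4 and 58.2 CPM against 27.6, 23.9 and 28.6 CPM. Ide, the insulin-degrading enzyme, had 116, 148 and 185 CPM against 57.1, 87.7 and 58.8 CPM. The lowest young library of each of the 3 lay above the highest old one.

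Dclk3, a doublecortin-like kinase gene, had 10.7, 3.96 and 7.02 CPM against 1.98, 0.515 and 1.58 CPM, and fell by 2.64 on the log2 scale with the recovered reads. Gabbr2, a subunit of the GABA-B receptor, had 18.0, 20.5 and 17.1 CPM against 8.49, 10.5 and 8.02 CPM. Akr1c19, an aldo-keto reductase, had 32.7, 47.1 and 55.0 CPM against 19, 19.7 and 21.5 CPM, but 21.4 CPM in the recovered reads, inside the old range. Adssl1, the muscle form of adenylosuccinate synthase, was at 54.9 CPM in the unnumbered library with its muscle reads and at 27.7 and 25 CPM in the numbered young ones, against 12.8, 12.2 and 13.3 CPM in old control. Slc41a3, Bzw2 and Ankrd9 had log2 fold changes of -1.62, -1.44 and -2.03.

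**Figure D2:**
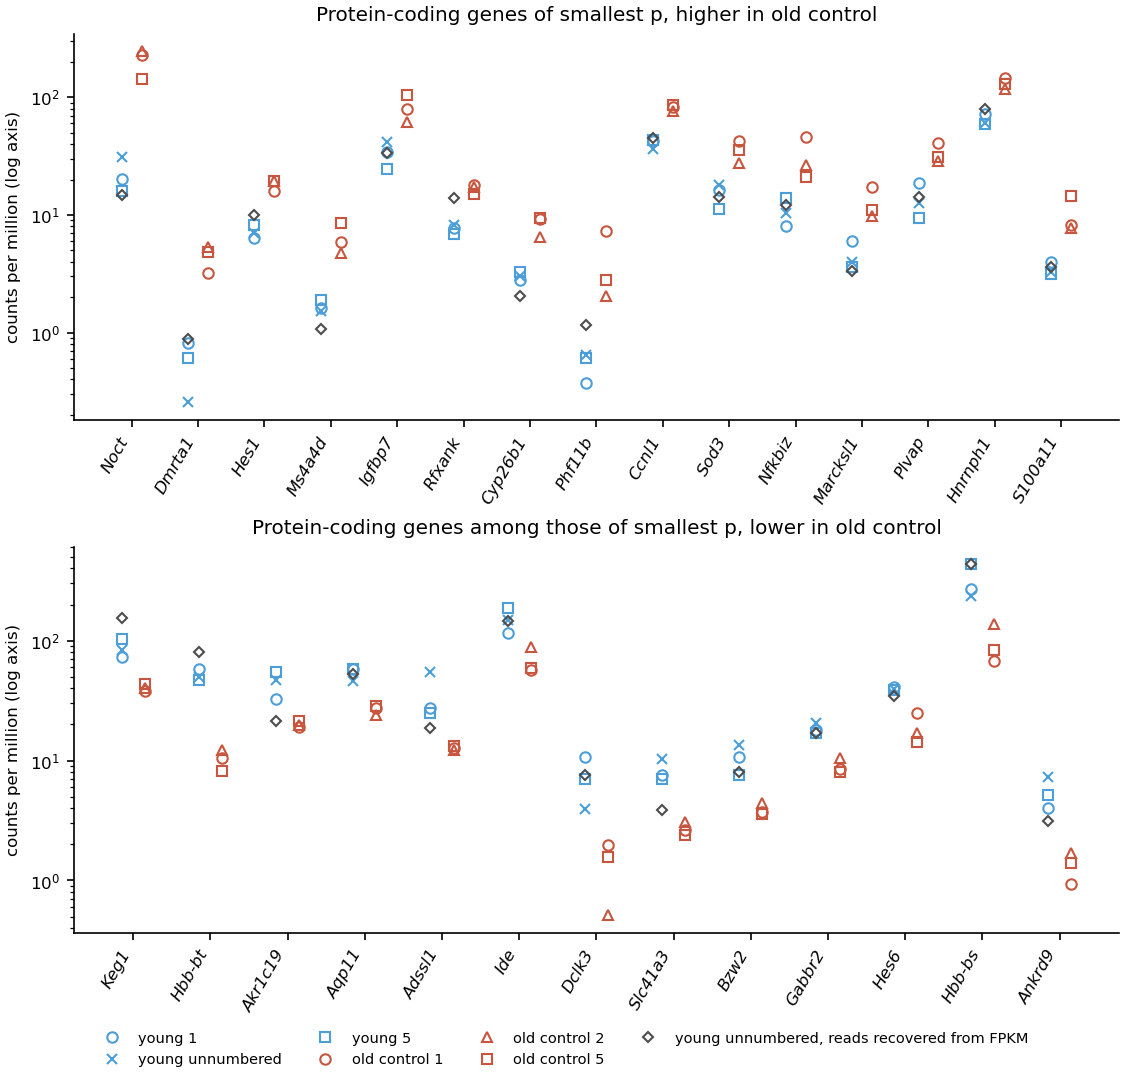
CPM of each library on a log axis for 15 protein-coding genes higher and 13 lower in old control, among those with the smallest p; blue marks are young, red marks old control, crosses the unnumbered young library and grey diamonds its reads recovered from FPKM. Young and old marks lie apart in every gene by the deposited counts, while the diamonds of several genes move towards the old libraries, among them Rfxank, Akr1c19, Slc41a3, Adssl1 and Ankrd9.

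Leaving out the unnumbered library brought other genes forward. Its p ranking placed Adamts1, Serpina12, Gadd45g, Esm1, Epha2 and Skil on the higher side, beside Noct, Dmrta1, Igfbp7 and Sod3. Esm1, a proteoglycan secreted by endothelial cells, had 0.148 and 0.229 CPM in young 1 and 5, 2.81 CPM in the unnumbered library, and 2.33, 1.77 and 4.10 CPM in old control. Epha2, an ephrin receptor, had 14.9, 18.8 and 10.6 CPM in young and 38.8, 45.0 and 41.8 CPM in old control. Gadd45g, a stress-induced regulator, had 44.8 and 27.9 CPM in young 1 and 5 against 102, 138 and 97.5 CPM, but 146 CPM in the unnumbered library. Serpina12, a secreted protease inhibitor also called vaspin, had 19.1, 1.98 and 14.3 CPM against 73.5, 57.4 and 39.4 CPM and 76.8 CPM in the recovered reads, above all 3 old libraries. Its log2 fold change was 2.27 with the deposited counts, 1.73 without the unnumbered library and 0.60 with the recovered reads. Skil, which restrains TGF-beta signalling, had a log2 fold change of 1.70 ± 0.36 without the library and 1.22 ± 0.38 with it. On the lower side Bmf, Slc46a3, Klhdc7a and Stard4 entered, with log2 fold changes of -2.22, -1.48, -1.26 and -1.04 without the library and of -1.79, -1.11, -0.93 and -0.70 with it.

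Red blood cell genes had the lowest median of the 58 gene lists described here, leaving aside skeletal muscle. Of 11 tested members 10 had a negative fold change, 7 of them at an unadjusted p under 0.05, and 8 had all old libraries below all young ones. Their median was -1.57, and -1.90 without the unnumbered library. For this and the later lists, the shares of all genes tested are the background. At an unadjusted p under 0.05 these were 6.42% higher and 4.07% lower. Without overlap they were 8.89% above and 8.26% below. In bulk tissue, fewer cells of a type and less RNA per cell cannot be told apart. Hbb-bs, an adult beta globin, had 270, 235 and 435 CPM in young and 67.2, 136 and 84.3 CPM in old control. Hbb-bt, the other adult beta globin, had 58.5, 49.5 and 47.2 CPM against 10.4, 12.4 and 8.21 CPM, a log2 fold change of -2.33 ± 0.43 (adjusted p = 0.165, edgeR). How much blood stayed in each liver is not given in the labels, and its part was not tested.

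Sinusoidal endothelial genes were higher as a list. All 25 tested members had a positive fold change, 12 at an unadjusted p under 0.05, and in 10 the old libraries lay above the young. The median was 0.76, and 0.56 without old control 1, the lowest median when any of the 6 libraries was left out. Clec4g, a lectin of these cells, had 15.9, 6.64 and 11.0 CPM in young and 42.4, 20.5 and 24.4 CPM in old control (log2 fold change 1.38 ± 0.35; adjusted p = 0.247, edgeR). Fcgr2b, an Fc receptor that clears immune complexes, had 21, 8.56 and 18.0 CPM against 45.5, 28.8 and 48.9 CPM. The clearance gene Dnase1l3 and Oit3 had log2 fold changes of 1.27 ± 0.35 and 1.25 ± 0.35. Among 16 tested genes of other vessels, 14 were positive, with a median of 0.85, and of 0.47 without old control 1, and 3 had an unadjusted p under 0.05 in the higher direction. Cd34, a vessel surface protein, stood on the lower side, with 6.07 CPM in the unnumbered library, against 1.18 and 0.916 CPM in the other young ones and 0.872, 0.221 and 0.758 CPM in old control.

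Stellate cell, fibroblast and matrix genes were higher in part. Of 22 tested stellate and fibroblast genes 15 were positive, 7 at an unadjusted p under 0.05, with a median of 0.56, and of 0.32 without young 5 and 0.31 without old control 5. Dcn, the matrix proteoglycan decorin, had 79.8, 92.4 and 69.8 CPM in young and 122, 159 and 242 CPM in old control (log2 fold change 1.11 ± 0.27; adjusted p = 0.204, edgeR). Pdgfra, a growth factor receptor of mesenchymal cells, had 4.44, 4.15 and 3.13 CPM against 7.32, 8.02 and 13.6 CPM. Old control 5 was the highest library for both. Among 26 tested collagen genes 17 were positive and 3 passed an unadjusted p of 0.05. Their median was 0.46, and 0.79 without the unnumbered library, 0.73 with its recovered reads, 0.29 without young 1 and 0.22 without old control 5. Col6a3 had 2.66, 6.39 and 4.12 CPM against 11.6, 8.61 and 11.9 CPM, and Col14a1 13.2, 17.3 and 13.3 CPM against 21.2, 25 and 38.3 CPM. The other matrix genes, 34 tested, had a median of 0.36, and of 0.82 without the unnumbered library or with its recovered reads, but of 0.20 without young 1, 0.16 without young 5 and 0.15 without old control 5; Efemp1, a matrix glycoprotein, and Bgn, the proteoglycan biglycan, had log2 fold changes of 1.40 ± 0.32 and 1.00 ± 0.26. The summed CPM of the collagens overlapped between the groups, at 816 to 1065 in young and 749 to 1052 in old control.

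**Figure D3:**
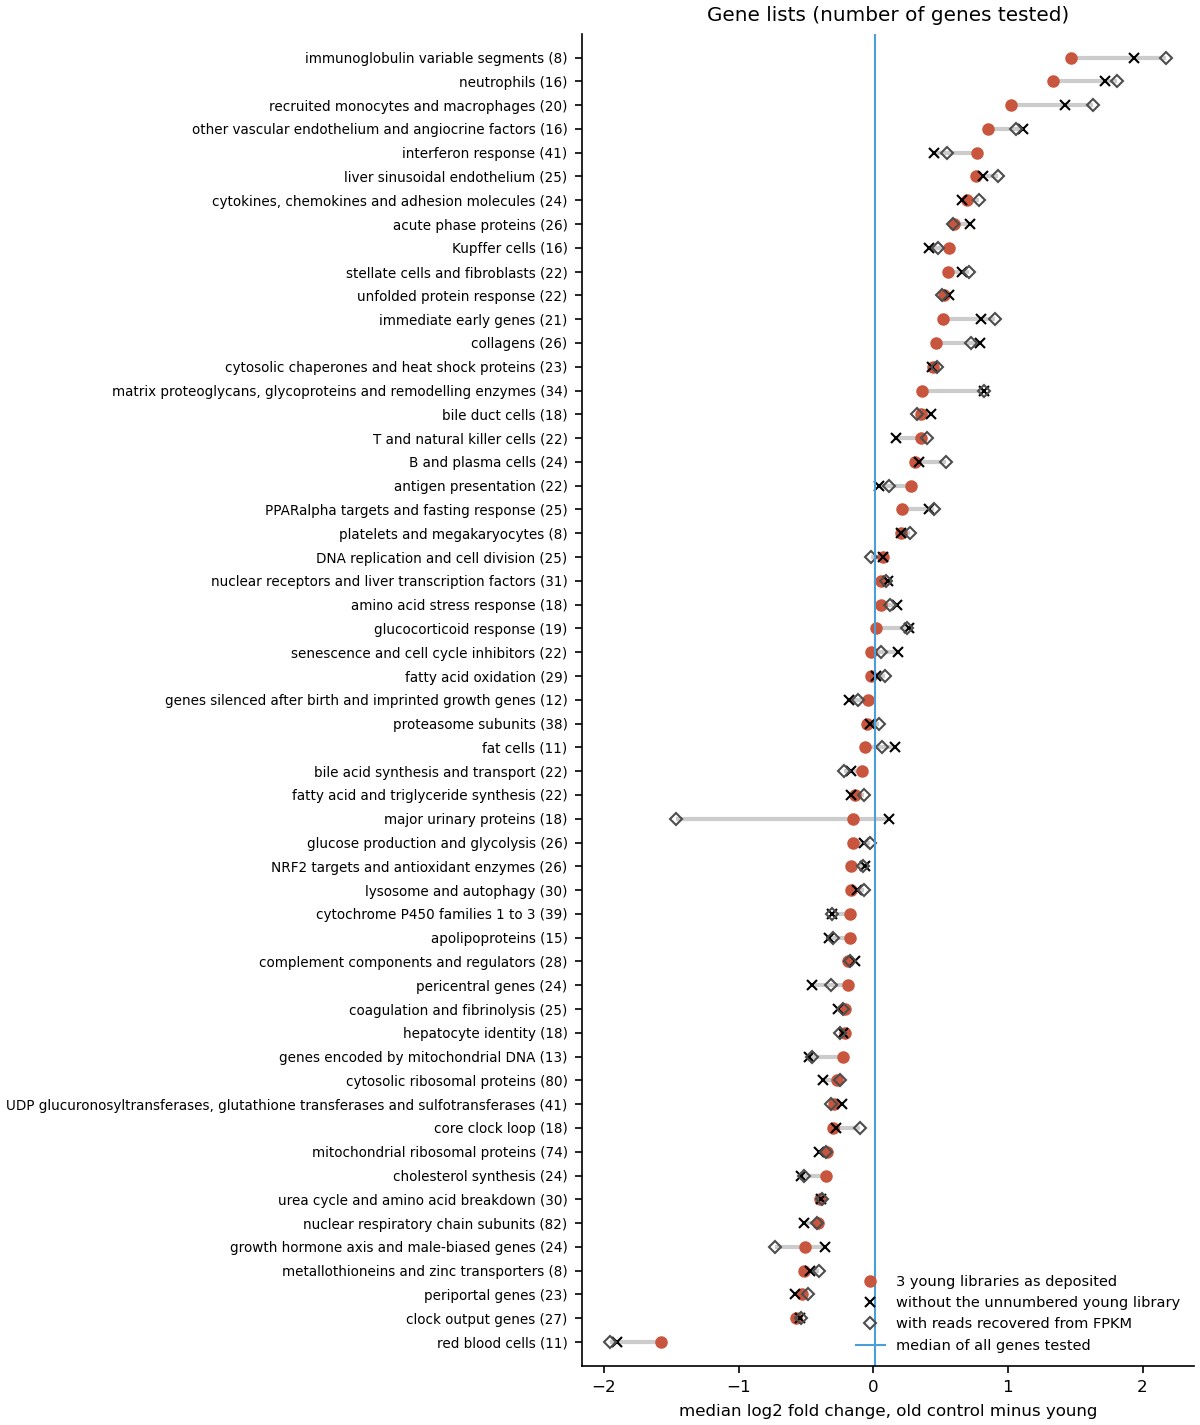
Median log2 fold change (old control minus young) of each gene list with at least 8 tested members, skeletal muscle fibres left out, with the deposited young libraries, without the unnumbered one, and with its recovered reads; the vertical line is the median of all genes tested. Red blood cells lie lowest at -1.57 and immunoglobulin variable segments, with 8 of 216 tested, highest at 1.47, and the major urinary proteins differ most between the settings.

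Antibody genes were higher in all 3 old livers. Igkc, the kappa light chain constant region, had 51.5, 56.4 and 68.0 CPM in young and 177, 146 and 329 CPM in old control (log2 fold change 1.89 ± 0.37; adjusted p = 0.165, edgeR). Igha, the constant region of IgA, had 23.3, 25.6 and 15.3 CPM against 54.9, 36.9 and 100 CPM. Ighm, that of IgM, had 14.6, 8.94 and 6.56 CPM against 33.8, 33.9 and 117 CPM. All 3 showed no overlap, with old control 5 highest. Of 216 variable segments counted, 8 were abundant enough to be tested, all 8 were positive, and 5 did not overlap. That count is partly set by the filter on low counts, since a segment had to reach enough counts in some group to be tested. Summed over all 216, the segments stood at 11.5, 19.4 and 7.40 CPM in young, 7.09 CPM in the recovered reads, and 29.9, 22.2 and 39.8 CPM in old control. The whole list of 24 tested B and plasma cell genes had a median of only 0.31, and of 0.54 with the recovered reads and -0.19 without old control 5.

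Myeloid genes were higher with an uneven spread over the old libraries. Of 20 tested genes of recruited monocytes and macrophages 18 were positive, 8 at an unadjusted p under 0.05, with a median of 1.02, and of 1.42 without the unnumbered library and 1.63 with its recovered reads. Lyz2, lysozyme, had 24.8, 42.0 and 35.7 CPM in young and 144, 62.4 and 44.9 CPM in old control (log2 fold change 1.29 ± 0.38). Among 16 tested neutrophil genes 15 were positive and 4 had an unadjusted p under 0.05, with a median of 1.34, and of 0.78 without old control 1. Csf3r, the receptor of granulocyte colony-stimulating factor, had 4.51, 2.36 and 3.66 CPM against 15.4, 9.27 and 5.49 CPM. The 4 neutrophil markers S100a8, S100a9, Ngp and Camp summed to 42.1, 33.7 and 10.8 CPM in old control and to 6.73, 23.1 and 9.31 CPM in young, which overlap. Old control 1 was the highest library for Lyz2, Csf3r and the sum of these 4 markers. Summed over the recruited monocyte and macrophage list, the unnumbered young library was highest, at 443 CPM, with 145 and 160 CPM in young 1 and 5. Old control 1, 2 and 5 stood at 342, 233 and 315 CPM, so the groups overlapped.

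Resident macrophage genes were high in 1 old liver. The 4 Kupffer cell markers Clec4f, Vsig4, Timd4 and Cd5l summed to 416 CPM in old control 1, but to 115 and 112 CPM in old control 2 and 5, inside the young range of 96.2 to 200 CPM. The list's median of 0.56 became -0.20 without old control 1. Interferon response genes behaved likewise: 40 of 41 were positive and 12 had an unadjusted p under 0.05, with a median of 0.77, and of 0.12 without old control 1 and 0.45 without the unnumbered library. Oas3, an antiviral sensor, had 13.8 CPM in old control 1, 1.55 and 1.64 CPM in the other 2, and 0.518, 1.02 and 1.30 CPM in young. Summed interferon response CPM was 3253 in old control 1, and 1651 and 1652 in old control 2 and 5, within the young range of 1141 to 1725.

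Cytokines, chemokines and adhesion molecules added 9 genes with all old libraries above the young and 2 with all below, and antigen presentation added 1 above. Of 42 cytokines, chemokines and adhesion molecules 24 were tested. Of these 10 stood higher and 1 stood lower at an unadjusted p below 0.05, with a median of 0.70, and of 0.35 without old control 1. Ccl2, which attracts monocytes, had 0.222, 0.192 and 0.153 CPM in young and 5.17, 1.33 and 1.01 CPM in old control. Ccl3, another chemokine, had no counts in the young libraries and 1.34, 0.809 and 0.884 CPM in old control. It could pass the filter on low counts only through old libraries, so its direction was set by the filter. Ccl2 in young stood near the floor of 3 counts. Cxcl16 had 3.33, 3.19 and 3.28 CPM against 10.6, 4.86 and 7.76 CPM. Of 22 tested antigen presentation genes 18 were positive, 4 at an unadjusted p under 0.05. Only 1 of the 22 had all old libraries above the young, beside 8.89% of all genes. Their median was 0.28, and 0.045 without the unnumbered library and 0.12 with its recovered reads. The MHC class II gene H2-Ab1 had 22.1, 25.5 and 29.4 CPM against 51.2, 32.1 and 72.3 CPM, a log2 fold change of 1.01 ± 0.29 (adjusted p = 0.296, edgeR). Cd74, the invariant chain of class II, had 46.9, 55.1 and 39.5 CPM against 128, 53.9 and 93.3 CPM, so that old control 2 lay inside the young range. T and natural killer cell genes, 22 tested, had 1 member at an unadjusted p under 0.05 and a median of 0.36, and of 0.17 without the unnumbered library and 0.05 without old control 5.

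Sox9, a transcription factor of bile duct cells, had 2.81, 2.94 and 2.29 CPM in young and 10.6, 12.9 and 9.03 CPM in old control (log2 fold change 2.01 ± 0.57; adjusted p = 0.296, edgeR). Over 18 tested bile duct genes the median was 0.36, and -0.01 without old control 5. Krt19, a keratin that defines bile duct cells, was at 0.444, 0.958 and 0.840 CPM in young and 0.523, 0.883 and 1.52 CPM in old control. The groups overlapped for it.

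Among hepatocyte functions, amino acid breakdown stood lower. Of 30 tested genes for the breakdown of amino acids and the making of urea, 27 had a negative fold change, 8 at an unadjusted p under 0.05, and 9 had all old libraries below the young, with a median of -0.40, and of -0.60 without young 5 (5 members at that p without scaling beyond the total count). Hpd, an enzyme of tyrosine breakdown, had 3727, 2402 and 2402 CPM in young and 1845, 1785 and 1472 CPM in old control (log2 fold change -0.74 ± 0.27; adjusted p = 0.385, edgeR). Gls2, the liver glutaminase, had 631, 460 and 345 CPM against 274, 294 and 307 CPM. Sds, serine dehydratase, had 393, 385 and 108 CPM against 120, 81.1 and 122 CPM, where young 5 lay inside the old range. The periportal list, genes of the zone that receives portal blood and one that shares several of these enzymes, had 19 of 23 negative, 8 at an unadjusted p under 0.05, and a median of -0.53, and of -0.78 without young 5. Summed, the periportal genes stood at 25150, 22691 and 12817 CPM in young 1, unnumbered and 5. Old control 1, 2 and 5 stood at 13767, 17753 and 16983 CPM, so young 5 lay below all old libraries. The pericentral list had 19 of 24 negative but none lower at that p, with a median of -0.18, and of -0.45 without the unnumbered library and 0.00 without young 5.

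Glucose genes differed singly, and 1 list of detoxification genes was lower in part. Slc37a4, the glucose 6-phosphate transporter, had 266, 177 and 203 CPM in young and 107, 105 and 130 CPM in old control. Irs2, an adaptor of the insulin receptor, had 16.6, 19.2 and 15.1 CPM against 50.04, 58.1 and 34.5 CPM (log2 fold change 1.48 ± 0.51). Neither the 26 genes of glucose production and glycolysis nor the 39 tested cytochrome P450 genes of families 1 to 3 shifted far as lists, with medians of -0.15 and -0.17, and of -0.07 and -0.31 without the unnumbered library. Among the P450 genes 7 had all old libraries below the young. Of 41 tested glucuronosyltransferases, glutathione transferases and sulfotransferases, 27 were negative and 6 had all old libraries below the young, beside 8.26% of all genes. Their median was -0.295, and -0.15 without old control 5. Summed, they stood at 9218 to 10243 CPM in young and 6646 to 8200 CPM in old control. Gstp1, a glutathione transferase, had 1332, 1496 and 862 CPM against 554, 364 and 530 CPM (log2 fold change -1.35 ± 0.39; adjusted p = 0.296, edgeR). Sult1e1, the estrogen sulfotransferase, had 0.518, 0.447 and 0.687 CPM against 4.42, 13.1 and 1.20 CPM. Slc39a4, a zinc importer, had 63.7, 45.7 and 46.0 CPM against 21.3, 22.7 and 26.1 CPM, and Slc30a10, a manganese exporter, 17.5, 24.3 and 13.7 CPM against 73.8, 75.7 and 41.9 CPM.

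Lipid genes were mixed. G0s2, an inhibitor of the lipase Pnpla2, had 49.6, 183 and 196 CPM in young and 447, 584 and 598 CPM in old control (log2 fold change 1.93 ± 0.44; adjusted p = 0.192, edgeR). Cidec, a lipid droplet protein, had 4.88, 22 and 6.56 CPM against 16.4, 85.7 and 17 CPM, and so overlapped through the unnumbered library. Dgat2, which makes triglyceride, had 433, 365 and 325 CPM against 321, 195 and 183 CPM. The cholesterol synthesis genes had 19 of 24 negative and a median of -0.35, which was 0.03 without young 1 and -0.53 without the unnumbered library. Fabp4, the target of the series' other virus, had 3.40 and 2.67 CPM in young 1 and 5 and 7.21, 13.6 and 10.9 CPM in old control, but 64.8 CPM in the unnumbered library and 2.53 CPM in its recovered reads. Its log2 fold change was -1.17 ± 1.15 with the deposited counts, 1.76 ± 0.46 without that library and 1.84 ± 0.39 with the recovered reads, and none passed (adjusted p = 0.756, 0.262 and 0.0743, edgeR).

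Male-biased and growth hormone dependent genes were lower in part, and the major urinary proteins depended on the reads used. Of 24 tested genes of the growth hormone axis and male-biased expression 18 were negative, 7 lower and 3 higher at an unadjusted p under 0.05, with a median of -0.51. The median moved to -0.36 without the unnumbered library and to -0.73 with its recovered reads. Hsd3b5, a steroid reductase of male liver, had 28.9, 27.5 and 28.7 CPM in young, 183 CPM in the recovered reads, and 10.8, 1.40 and 6.63 CPM in old control. Mup1, a major urinary protein gene, was among the higher 3, at 6.73, 11 and 16.4 CPM against 28.5, 70.3 and 35.4 CPM. In the recovered reads Mup1 had 92.0 CPM, above all 3 old libraries. Its log2 fold change was 1.98 with the deposited counts and 0.195 with the recovered reads. Mup21 had 544, 291 and 246 CPM against 88.2, 101 and 190 CPM. Over 18 tested major urinary protein genes, which are near-identical copies whose reads can be split, the median was -0.15 with the deposited counts, 0.12 without the unnumbered library and -1.47 with its recovered reads. Mup12 shows this: 951, 1329 and 3953 CPM in young and 3745, 5436 and 5130 CPM in old control, but 15655 CPM in the recovered reads.

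Nuclear genes for mitochondrial and ribosomal proteins were lower, mostly by small amounts. All 82 tested nuclear respiratory chain subunits had a negative fold change, and the median was -0.41. At an unadjusted p under 0.05 stood 27 of them, and 35 had all old libraries below the young. Over all genes tested, the shares lower in these 2 ways were 4.07% and 8.26%. Ndufv1, a complex I subunit, had 127, 162 and 121 CPM in young and 91.0, 90.9 and 65.7 CPM in old control (log2 fold change -0.73 ± 0.21; adjusted p = 0.296, edgeR). In the recovered reads Ndufv1 had 89.2 CPM, inside the old range. Cox7a1, of the same list, had 4.66, 36.1 and 2.06 CPM in young 1, unnumbered and 5, against 1.63, 1.25 and 1.33 CPM. Its log2 fold change was -3.34 with the deposited counts and -1.29 without the unnumbered library. Atp5g1, an ATP synthase subunit, had 249, 205 and 225 CPM against 129, 148 and 151 CPM. Mitochondrial ribosomal proteins had 69 of 74 negative, 30 without overlap, and a median of -0.35. Cytosolic ribosomal proteins had 79 of 80 negative, 21 without overlap, but only 2 at an unadjusted p under 0.05, and a median of -0.27. Without scaling beyond the total count these medians were -0.27, -0.20 and -0.13, and 5, 0 and 0 members stood lower at an unadjusted p below 0.05. With the recovered reads the medians were -0.42, -0.35 and -0.25. The cytosolic list summed to 17886 CPM in the recovered reads, inside the old range of 17348 to 19269 CPM, against 20349 to 24353 CPM in the deposited young counts. The 13 genes encoded by mitochondrial DNA had none at an unadjusted p under 0.05. Their median was -0.22, and -0.48 without the unnumbered library, 0.09 without young 1 and 0.18 without old control 1, the library with the smallest share of such counts.

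These proteins are encoded by short transcripts, and length went with the fold change over all genes. Protein-coding genes with a mean of at least 10 CPM were cut into 5 groups of nearly equal size by total exon length. The median log2 fold change was -0.20 in the shortest group (297 to 2497 bases), then -0.12, -0.02 and 0.02, and 0.12 in the longest (from 7875 bases). In the shortest group 1038 of 1435 genes were negative, and in the longest 487 of 1435. Leaving out any 1 of the 6 libraries gave medians between -0.25 and -0.16 in the shortest and between 0.09 and 0.13 in the longest group. The typical total exon length was 1696 bases for the respiratory chain list, 2542 for the mitochondrial and 1806 for the cytosolic ribosomal list. Their medians of -0.41, -0.35 and -0.27 thus stand beside -0.20 to -0.12 for genes of such length, and the part of length in them was not tested.

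**Figure D4:**
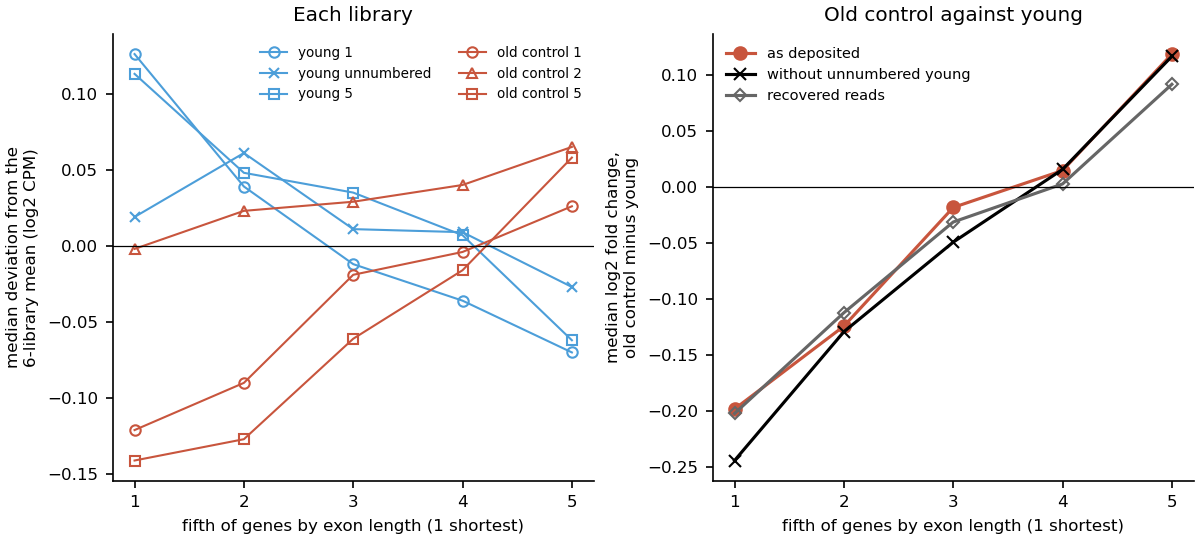
Left, median deviation of log2 CPM from the 6-library mean for protein-coding genes of at least 10 CPM, in 5 groups from shortest to longest total exon length, for each library; right, the median log2 fold change of the same groups. The fold change goes from -0.20 to 0.12, with young 1 and 5 above and old control 1 and 5 below 0 at the short end.

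Clock genes differed in both directions between old and young liver. Of 18 tested genes of the core loop 4 had all old libraries above and 5 all below the young, with 3 on either side at an unadjusted p below 0.05. The repressor Bhlhe41 had 4.07, 3.13 and 7.18 CPM in young and 0.407, 0.589 and 1.39 CPM in old control (log2 fold change -2.58 ± 0.64; adjusted p = 0.238, edgeR). Cry2, a core repressor, had 27.0, 19.9 and 21 CPM against 11.0, 6.03 and 13.3 CPM. Npas2, a partner of Bmal1, had 0.222, 0.447 and 1.15 CPM against 8.89, 6.62 and 2.78 CPM. Nr1d2, a repressor of Bmal1 transcription, had 66.6, 67.1 and 78.3 CPM against 27.4, 29.4 and 56.9 CPM. Of 27 tested output genes 19 were negative, and 6 stood lower and 3 higher at an unadjusted p under 0.05, with a median of -0.58. The higher 3 were Noct, which passed, Tubb2a, a tubulin gene, and Avpr1a, the liver vasopressin receptor, with log2 fold changes of 2.35 ± 0.82 and 0.68 ± 0.27 for the last 2. Usp2, a rhythmic ubiquitin protease, had 35.6, 22.2 and 51.2 CPM against 2.27, 3.09 and 3.35 CPM, and Por, which supplies electrons to cytochrome P450, 444, 597 and 677 CPM against 291, 270 and 374 CPM.

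Other members, chosen after their values were seen, show the same order and set old control 5 apart. Arntl had 3.25, 4.85 and 0.916 CPM in young and 23.5, 19.1 and 6.76 CPM in old control. Dbp, a rhythmic transcription factor gene, had 100, 32.4 and 90.2 CPM in young, 0.581 and 0.589 CPM in old control 1 and 2, and 16.4 CPM in old control 5. Ciart, a clock repressor, had 15.2, 11.3 and 9.62 CPM in young and 0.291, 0.0736 and 2.02 CPM in old control. Old control 5 lay nearest the young libraries in all 3. For Nr1d1, the Rev-erb alpha repressor, it lay inside the young range, at 56.9 CPM against 69.8, 46.5 and 33.2 CPM in young and 14.7 and 15.3 CPM in old control 1 and 2. With such spread within the old group, Dbp and Ciart had adjusted p of 0.549 and 0.513 (edgeR). The hour at which each mouse was killed is not in the labels, and its part was not tested.

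**Figure D5:**
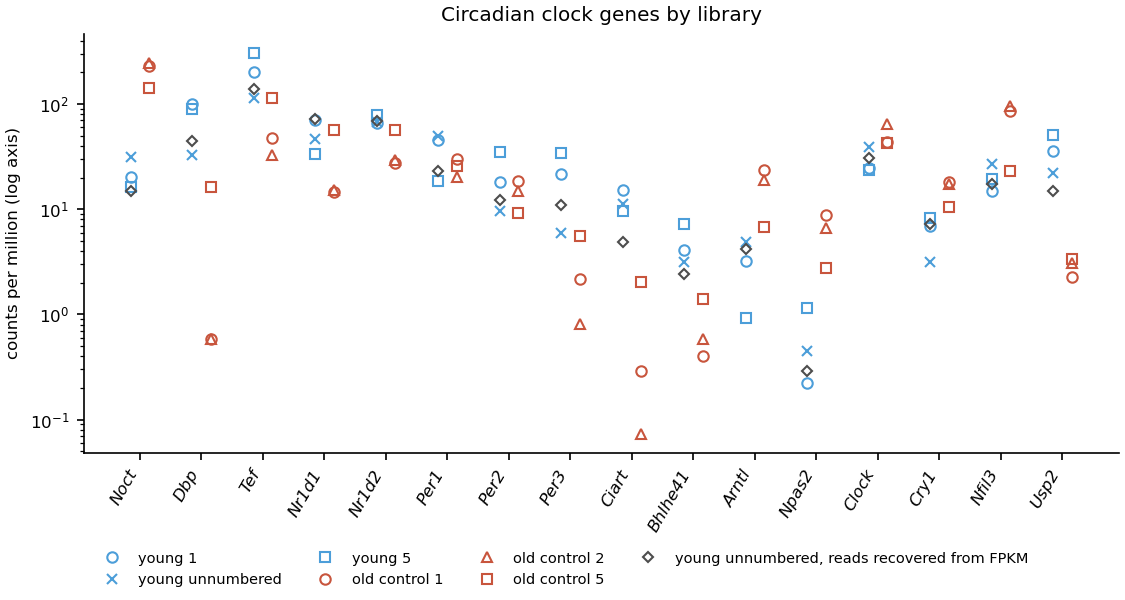
CPM of clock genes in each library on a log axis; blue marks are young, red marks old control, crosses the unnumbered young library and grey diamonds its recovered reads. Old control 1 and 2 lie far from the young libraries in Dbp, Ciart and Noct, and old control 5 (red squares) lies between them in Dbp and Ciart.

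The promoters of 2 of these lower genes are shown because they carry the E-box CACGTG, the word that Clock and Bmal1 bind, marked in capitals. It was found in 4 of 21 promoters of the core loop (19.1%; Per1, Cry1, Ciart and Bhlhe41) and in 7.60% of 25038 promoters of the same length. Of those 4 genes, Cry1 stood on the higher side (6.95, 3.13 and 8.24 CPM against 18.1, 17.4 and 10.5 CPM) and Per1 overlapped between the groups, so the word did not go with 1 direction. The stretches are chr6:145865371-145865670 (minus strand) and chr3:95882179-95882478 (minus strand), from RefSeq on GRCm38.p6.
Bhlhe41: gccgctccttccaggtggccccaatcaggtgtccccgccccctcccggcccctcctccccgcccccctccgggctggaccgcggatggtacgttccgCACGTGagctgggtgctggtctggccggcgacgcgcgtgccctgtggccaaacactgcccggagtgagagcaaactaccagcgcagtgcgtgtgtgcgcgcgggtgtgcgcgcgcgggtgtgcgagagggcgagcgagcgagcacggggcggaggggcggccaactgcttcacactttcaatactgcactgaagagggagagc
Ciart: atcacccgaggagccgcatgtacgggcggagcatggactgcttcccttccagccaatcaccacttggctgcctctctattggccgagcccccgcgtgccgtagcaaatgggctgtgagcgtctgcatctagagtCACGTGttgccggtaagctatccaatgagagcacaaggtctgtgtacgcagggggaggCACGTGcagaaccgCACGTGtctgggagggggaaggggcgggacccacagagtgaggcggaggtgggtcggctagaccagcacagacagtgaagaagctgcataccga

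Lists of stress and early response genes differed among themselves, and 1 library weighed on several. Of 22 tested genes of the unfolded protein response 18 were positive, 3 at an unadjusted p under 0.05, with a median of 0.52, and of 0.15 without old control 2. Pdia4, a chaperone of the endoplasmic reticulum, had 89.8, 125 and 92.3 CPM in young and 163, 424 and 140 CPM in old control (log2 fold change 1.25 ± 0.55). Cytosolic chaperones had 19 of 23 positive, 1 at that p, and a median of 0.45, and of 0.17 without old control 2. The amino acid stress response had 10 of 18 positive and a median of 0.05, and of 0.17 without the unnumbered library and 0.12 with its recovered reads. None of its members stood higher at that p and 2 stood lower. These were Trib3, a pseudokinase of that response, at 22.5, 18.7 and 15.8 CPM in young and 4.13, 6.77 and 12.9 CPM in old control, and Ddit4, an inhibitor of mTOR signalling, at 19.4, 36.6 and 1.99 CPM against 4.53, 3.02 and 2.71 CPM. Acute phase proteins had 20 of 26 positive, 4 at that p, and a median of 0.60, and of 0.11 without old control 1. Steap4, a metalloreductase of inflammation, had 45.3, 48.5 and 70.7 CPM against 203, 277 and 37.6 CPM, so that old control 5 was below all young libraries. Immediate early genes had 16 of 21 positive, 7 at that p, and a median of 0.52, and of 0.80 without the unnumbered library and 0.90 with its recovered reads; Fos, a subunit of the AP-1 factor, had 0.370, 0.511 and 1.83 CPM against 3.95, 2.87 and 3.16 CPM.

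Spread within the groups was of similar size. For 7378 genes of at least 10 CPM the median SD of log2 CPM was 0.25 over the young and 0.25 over the old control libraries, and 0.20 over the young with the recovered reads. In the unnumbered library 415 of these genes lay more than 1 log2 unit from the mean of the group mates, against 175 to 262 in the other 5.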

How the data were processed

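The submitters' processing notes name HISAT2 and GRCm38.p6; of the counter, strand setting and annotation, nothing is given in the sources used here. As deposited, the count table has unscaled whole-read counts for 54532 genes in 9 libraries. The deposited FPKM table holds the same libraries as the authors' FPKM, scaled for length and depth. Columns with no match to any sample or group numbered 0. On 10483 genes with at least 20 counts, the ratio of FPKM to count was constant (relative tolerance 0.001) for 100% of genes in 8 columns and for 0.229% in the unnumbered young column. Reads behind that FPKM column were recovered: of 17877 values 100% were whole within 0.05 reads, 260 genes above 0 were not recovered, and 11805823 reads resulted.

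Genes were tested with edgeR 4.0.16 (R 4.3.3; filterByExpr by group, TMM factors 0.825 to 1.15, robust quasi-likelihood, 1 mean per group over all 9 libraries, 6 residual degrees of freedom, biological coefficient of variation 0.320), with Benjamini-Hochberg adjustment over all genes and two-sided p. The fit with 9 libraries shares 1 estimate of spread; DESeq2 1.42.0 and limma 3.58.1 were alternatives, as were other scalings, filters and left-out libraries. The pipeline was checked on simulated data. Before TMM scaling, the total counts set 3 counts, the floor of detection, at 0.183 to 0.211 CPM. Floors and intervals cover counting error only. All other CPM are TMM-scaled, with effective sizes of 13100897 to 17205556 in the 6 libraries, so the floor on that scale is not the same. The labels do not say that each library is a separate mouse, so p-values measure the spread between these samples.

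Members and the 58 gene lists (1318 tested genes) were chosen with earlier results of these data known, so lists have counts and medians but no test. Of the listed symbols 4 were not found, and all 58 lists had a tested member. Named are all called genes; the 15 protein-coding genes of smallest p on each side with at least 1 CPM and the same sign in all 3 treatments of the unnumbered library; the 10 per side without that library; the 4 members of smallest p per list; the 20 most abundant genes; neighbours of called genes; Fabp4; and muscle genes. A few genes that this rule names are not reported here. Positions come from GENCODE M21 (54495 of 54532 identifiers found). Promoters come from RefSeq.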

Additional observations from a re-analysis of the deposited data

How the results depend on the processing

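The 5 calls became 5 with RLE and 5 with upper quartile scaling and 6 with no scaling. They became 137 with no filter on counts (95 higher, 42 lower), 2 with a filter of 10 CPM in 3 libraries, 15 with the 6 libraries only (12 higher, 3 lower), 3 without the unnumbered young library, 10 with its recovered reads, 162 with DESeq2 (105 higher, 57 lower), 3 with limma-voom, 10 with sample quality weights, and 18 and 21 with limma-trend on log2 FPKM at pseudocounts of 1 and 0.1. Leaving out numbered libraries gave 1 to 5 calls: 1 without young 1, and 3 without each of young 5, old control 1 and old control 2. Only numbers 1 and 5 are shared between the groups, and no label says that they pair animals; with the replicate block 7 genes were called (6 higher, 1 lower), and Gtpbp4-ps1 was lost (adjusted p = 0.0511, edgeR). With limma-voom Gtpbp4-ps1 and Gm40923 were lost (adjusted p = 0.0587 and 0.164). Noct kept its direction in all 19 alternatives and passed in all but 4, which left out young 1, young 5, old control 1 or old control 2 (adjusted p 0.0838 to 0.141, edgeR).

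The 1472 genes at an unadjusted p under 0.05 became 812 with the stricter filter, which tests 7820 genes, and 1040 to 1468 without numbered libraries. The 2406 genes whose groups do not overlap became 1411 with that filter, 4525 without the unnumbered library and 3605 to 4410 without a numbered one, since fewer libraries separate more easily. Of 894 values for 48 named genes, 888 kept their direction, and the other 6 were Fabp4. It stood at 1.76 without the unnumbered library, 1.84 with recovered reads, 0.16 with limma-voom, 0.77 with quality weights, and 0.98 and 1.66 on log2 FPKM. Of 750 list medians, 70 in 35 lists moved by more than the spread within groups. With 14243344 to 16414852 counts per library, differences in genes under 1 CPM rest on few reads.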

Other observations

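Several functions showed little shift between old control and young liver. Of 29 fatty acid oxidation genes none had an unadjusted p under 0.05. Their median log2 fold change was -0.02, and 0.02 without the unnumbered library and 0.08 with its recovered reads. It was 0.145 without old control 1 and -0.22 without old control 2. Over 38 proteasome subunits, again with none at that p, the median was -0.04, and -0.02 without the unnumbered library and 0.04 with the recovered reads. Without old control 2 it was -0.16. These medians, and that of the senescence list below, turned positive without scaling beyond the total count. DNA replication and cell division genes, 25 tested, had none at that p and a median of 0.07, and of -0.02 with the recovered reads. Their median was -0.17 without old control 1, 0.24 without old control 2 and 0.26 without scaling beyond the total count. The senescence list had a median of -0.01, and of 0.19 without the unnumbered library and 0.06 with its recovered reads. Of 22 senescence and cell cycle inhibitor genes, 3 stood higher and 3 stood lower at that p: Cdkn2a, the p16 and p19 gene, had 0.222, 0.128 and 0 CPM in young and 1.51, 0.883 and 0.189 CPM in old control, while Cdkn2c, another inhibitor of cyclin-dependent kinases, had 9.32, 9.13 and 7.33 CPM against 4.19, 2.94 and 4.99 CPM.

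Classes of transcript are given beside all genes, of which 8.89% lay above and 8.26% below without overlap. Processed pseudogenes, 438 tested, had 2.28% above and 8.90% below, with a median log2 fold change of -0.15, and of -0.10 without the unnumbered library. Genes annotated as to be experimentally checked (TEC), 138 tested, had 15.9% above and 3.62% below. Long intergenic RNAs, 307 tested, had 11.1% above and 6.19% below, near the shares of all genes, and their median of 0.16 was 0.02 without that library.

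The 3 old livers given the hairpin against Fabp4 entered the filter, the scaling and the estimate of spread, but not the contrast. The young libraries set beside them here are the same that gave the calls. These 3 livers held each of the 5 called genes above the highest young library. Noct stood there at 157, 240 and 84.3 CPM, Gtpbp4-ps1 at 31.9, 19.5 and 63.3 CPM, Gm15401 at 3.05, 3.92 and 2.77 CPM, Gm37969 at 1.71, 2.10 and 1.52 CPM, and Gm40923 at 2.38, 3.59 and 1.83 CPM.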
